A study of Homo sapiens with 6 samples.

Results

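The kinases, phosphatases and subunits of the pyruvate dehydrogenase complex were followed in A375 cells, a human malignant melanoma line, after partial depletion of the transcript of matrix metalloproteinase 9 (MMP9). The 10 genes, taken by symbol from the 18539 genes of the deposited table, were the kinase genes PDK1, PDK2, PDK3 and PDK4, the phosphatase genes PDP1 and PDP2, the E1 subunit genes PDHA1 and PDHB, the E2 core gene DLAT and the E3-binding protein gene PDHX. All 10 were listed and all 10 passed the filter on low counts. The set was built around PDK4, a gene selected on its fold change between these same shMMP9 and shControl libraries, and the other 9 genes were added by family and complex with their values known. For that reason the values of the 10 genes are given as a description, with the standard error (SE) of each fold change and no p-value.

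Total RNA was sequenced from 3 libraries of cells carrying a short hairpin RNA against MMP9 (shMMP9) and 3 libraries of cells treated with a control hairpin (shControl). Cells were grown with 10% fetal bovine serum, infected with lentivirus in 8 µg/ml polybrene and selected in 2 µg/ml puromycin for 2 weeks. One hairpin sequence against MMP9 is given in the labels, and the sequence of the control hairpin is not given in the sources used here. Effects of lower MMP9 and other effects of this hairpin or of the selected cells cannot be told apart. No label says that the replicates came from separate cultures, so the spread between them may be technical.

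Pyruvate dehydrogenase stands between glycolysis and the tricarboxylic acid (TCA) cycle: inside the mitochondrion it turns pyruvate into acetyl-CoA. The E1 enzyme, built of alpha and beta subunits, removes carbon dioxide from pyruvate, the E2 core transfers the acetyl group, and the E3 enzyme, held by the E3-binding protein, restores the cofactor lipoate. The PDK kinases switch the complex off by phosphorylating the E1 alpha subunit, and the PDP phosphatases switch it back on. PDK4 is known as the isoform induced in fasting muscle, heart and liver through PPAR, FOXO and glucocorticoid receptors, and PDK1 as a target of hypoxia-inducible factor.

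The hairpin target is shown because it defines the shMMP9 cells. It falls in the coding part of exon 4 (13 exons in all) of the MMP9 gene, at chr20:46010992-46011012 on the plus strand of GRCh38, and was found in full in 1 of 206694 annotated transcripts, none of them from the 10 genes.
shMMP9 target: cattcagggagacgcccattt

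The window around the start site of PDK4 is shown because this gene had by far the largest change of the 10. It spans 250 bases before and 50 bases after the RefSeq start site, at chr7:95596467-95596766 on the minus strand of GRCh38.p14, with GC boxes and the CCAAT box in capitals.
PDK4 start site window: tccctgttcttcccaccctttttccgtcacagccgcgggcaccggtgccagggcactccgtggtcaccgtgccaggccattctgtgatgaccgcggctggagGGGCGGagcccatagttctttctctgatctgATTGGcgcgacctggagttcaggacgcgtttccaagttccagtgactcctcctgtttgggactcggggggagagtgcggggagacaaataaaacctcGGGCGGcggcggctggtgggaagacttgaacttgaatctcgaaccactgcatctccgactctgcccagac

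Motifs were searched on both strands of this window and of all 35116 windows of the same length in the RefSeq table. The PDK4 window held the GC box (GGGCGG) at 2 places, a motif present in 45% of all windows, and the CCAAT box (CCAAT, here read on the opposite strand as ATTGG) at 1 place, a motif present in 34.6%. It held no FOXO core (GTAAACA, in 3.42% of all windows), no insulin response sequence (TGTTTTG, in 4.92%), no nuclear receptor core (AGGTCA, in 13.8%) and neither of the hypoxia cores ACGTG (in 21.4%) and GCGTG (in 36.5%). The AGGTCA core is contained in the PPAR repeat, a pair of AGGTCA cores with N between them, and in the extended ERR core TCAAGGTCA, which were absent as well. These matches describe letters in the window and say nothing of binding. A window was available for 9 of the 10 genes, and the AGGTCA core was present in that of DLAT alone.

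The libraries held an estimated 21854123 to 25895698 reads in shMMP9 and 24319969 to 28005552 in shControl. MMP9 itself stood at 16.2, 14.6 and 17.1 scaled counts in the shMMP9 libraries, against 26.1, 24.3 and 28.7 in the shControl libraries, where a scaled count is a gene's count brought by the authors to an upper quartile common to all libraries. The mean of MMP9 in shMMP9 was 0.605 times that in shControl. Mitochondrially encoded genes (MT- symbols) took up 0.62 to 0.71% of reads in shMMP9 and 1.64 to 1.79% in shControl. The melanocyte lineage marker SOX10 stood at 784.7 ± 40.6 in shMMP9 and 377.7 ± 18.4 in shControl (SD, n = 3 each). Of the 4 tested markers of that lineage 2 were called higher (SOX10 and S100B), MITF was called lower, at 27.7 in shMMP9 and 35.5 in shControl, and PMEL was not called, at 1.75 in shMMP9 and 1.70 in shControl, while TYR and DCT were not listed in the table, and MLANA and TYRP1 were listed below the filter. Among leukocyte markers 3 were listed, with a summed scaled count of 98.03 to 101 in shMMP9 and 113.7 to 135.3 in shControl, nearly all from CD68, while PTPRC, CD3E and TYROBP were not listed. The 7 fibroblast markers summed to 22.2 to 25.6 in shMMP9 and 49.1 to 54.9 in shControl, and the 4 listed epithelial markers of 7 to 127.5 to 135.8 in shMMP9 and 70.1 to 81.8 in shControl. Most of the epithelial sum was KRT10, at 111.6 in shMMP9 and 71.6 in shControl, and nearly all the rest KRT14, at 19.7 and 4.04. KRT5 and EPCAM were listed below the filter, with lower means in shMMP9, and CDH1, KRT1 and KRT19 were not listed. None of the 6 muscle markers was listed, and the part of the other lists in the results below was not tested.

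Across the 10 genes, PDK4 stood far apart. Its level in shMMP9 was 8.64 times that in shControl, and no other member changed by 2-fold. Beside it, the kinase gene PDK2 was higher in shMMP9, and both phosphatase genes and the E1 alpha gene PDHA1 were lower. PDK1 and PDHX had small changes without overlap, and the groups overlapped for PDK3, PDHB and the E2 core gene DLAT.

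Among the kinases, PDK4 had 125.8, 134.4 and 128.1 scaled counts in the shMMP9 libraries, against 14.97, 15.2 and 14.8 in the shControl libraries. The groups were far apart, and the 3 control libraries differed from each other by less than 1 scaled count. The means were 129.4 ± 4.42 in shMMP9 and 14.99 ± 0.212 in shControl (SD, n = 3 each), resting on 396 to 3748 estimated reads per library. The log2 fold change, which throughout is a difference of log2(scaled count + 1), shMMP9 minus shControl, was 3.03 (SE 0.0547), the 6th highest of 17194 genes tested. In a bulk library, more cells that express a gene and more transcript per cell cannot be told apart. With each library left out in turn the log2 fold change stayed between 3.001 and 3.048.

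PDK2, a kinase found in most tissues, had 26.2, 27.8 and 29.1 scaled counts in the shMMP9 libraries, against 18.5, 21.98 and 19.7 in the shControl libraries. Every shMMP9 library lay above every shControl library, with a log2 fold change of 0.45 (SE 0.0782). SAMD14, which overlaps part of PDK2 on the opposite strand, stood at 3.99 ± 0.334 in shMMP9 and 9.86 ± 1.13 in shControl (SD, n = 3 each). The strand setting of the counting is not given in the sources used here, so reads from the stretch such pairs share cannot be told apart.

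PDK1, the kinase known to respond to hypoxia, had 28.9, 30.7 and 28.4 scaled counts in the shMMP9 libraries, against 34.4, 32.7 and 32.2 in the shControl libraries. The shMMP9 libraries were all lower, by a small margin, and the log2 fold change was -0.17 (SE 0.0627). It was called lower (adjusted p under 0.05 by limma over all genes tested) with all 6 libraries, but not without shControl replicate 1, 2 or 3 or shMMP9 replicate 1 or 3, when it ranged from -0.19 to -0.14, nor with median-of-ratios or total-read scaling in place of the authors' upper quartile (-0.11 by both). The call was also lost, at -0.17, with the replicate number as a block, with no variance trend and at a threshold of 0.01.

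PDK3, the X-linked kinase, had 17.8, 16.8 and 17.2 scaled counts in the shMMP9 libraries, against 17.8, 14.4 and 15.3 in the shControl libraries. The groups overlapped because shControl replicate 1 lay as high as the shMMP9 libraries, and the log2 fold change of 0.12 (SE 0.0882) was not called. Without shControl replicate 1 it was 0.21 and was called higher.

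**Figure D1:**
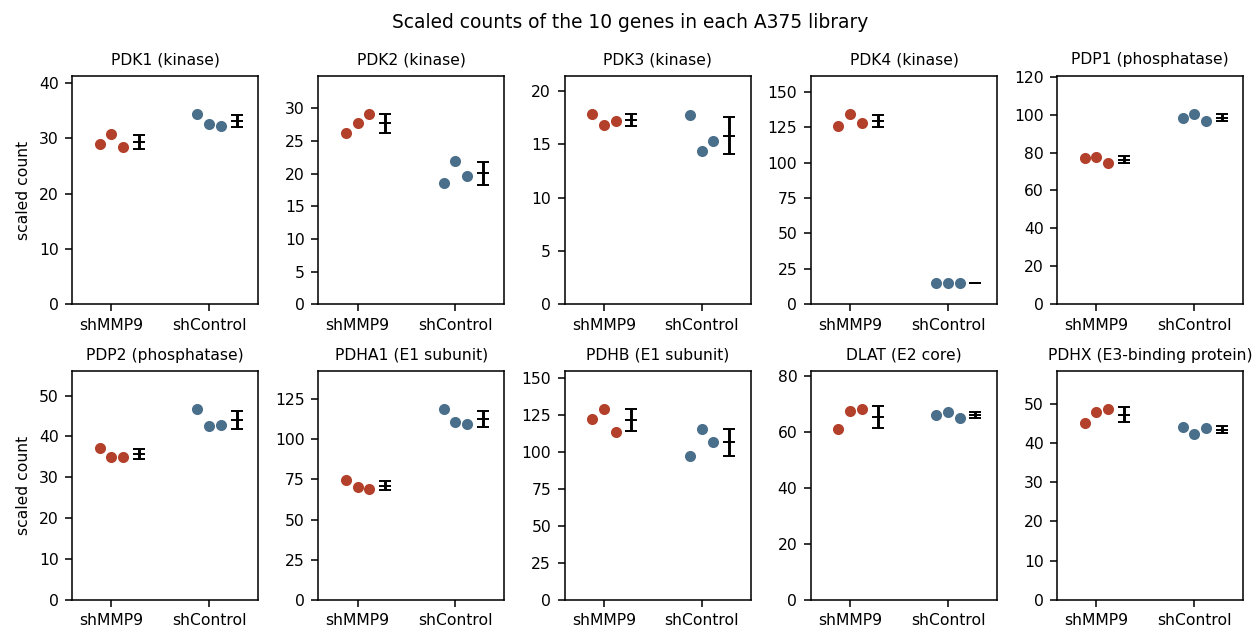
Scaled counts (vertical axes, each from 0) of the 10 genes in the 3 shMMP9 libraries (red, left) and the 3 shControl libraries (blue, right), with the mean and SD as black bars. PDK4 lies between 125.8 and 134.4 in shMMP9 and between 14.8 and 15.2 in shControl, while the other genes differ by less than 2-fold.

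The phosphatases moved the other way from PDK4 and by much less. PDP1, the calcium-stimulated phosphatase, had 77.1, 77.6 and 74.3 scaled counts in the shMMP9 libraries, against 98.5, 100.3 and 96.6 in the shControl libraries, with no overlap and a log2 fold change of -0.36 (SE 0.0476). PDP2, the second phosphatase, had 37.2, 34.97 and 35.1 scaled counts in the shMMP9 libraries, against 46.6, 42.6 and 42.8 in the shControl libraries, again with no overlap and a log2 fold change of -0.29 (SE 0.0606). Both phosphatase genes therefore stood lower in all 3 shMMP9 libraries, at 0.775 times the control level for PDP1 and 0.813 times for PDP2.

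Within the E1 enzyme the 2 subunit genes parted. PDHA1, which encodes the alpha subunit that the kinases phosphorylate, had 74.4, 70.2 and 69.0 scaled counts in the shMMP9 libraries, against 118.7, 110.7 and 109.4 in the shControl libraries. The groups lay far from overlap, and the log2 fold change of -0.66 (SE 0.0528) was the largest of the members other than PDK4. MAP3K15, which overlaps part of PDHA1 on the opposite strand, stood at 0.482 ± 0.0997 in shMMP9 and 2.51 ± 0.430 in shControl (SD, n = 3 each). Reads from the stretch this pair shares cannot be told apart either.

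PDHB, which encodes the beta subunit, had 122.1, 128.5 and 113.3 scaled counts in the shMMP9 libraries, against 97.3, 115.2 and 106.2 in the shControl libraries. The groups overlapped through shControl replicate 2, and the log2 fold change was 0.19 (SE 0.0654). It was called higher with all 6 libraries, but not without shControl replicate 1 (0.13) or 3 (0.19), or shMMP9 replicate 1 (0.19) or 2 (0.15). Nor was it called with no variance trend or at a threshold of 0.01, both at 0.19.

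DLAT, the acetyltransferase core, had 61.0, 67.6 and 68.1 scaled counts in the shMMP9 libraries, against 66.2, 67.1 and 65.2 in the shControl libraries. The groups overlapped, with a log2 fold change of -0.01 (SE 0.0557) whose sign turned under other scalings (0.04 by both). PDHX, the protein that docks E3 onto the core, had 45.1, 48.1 and 48.7 scaled counts in the shMMP9 libraries, against 44.2, 42.4 and 43.8 in the shControl libraries. These groups did not overlap, but the log2 fold change of 0.12 (SE 0.0558) was not called, and was called higher under both other scalings, at 0.17 (median-of-ratios) and 0.18 (total reads). PDHX overlaps APIP on the opposite strand, which had 25.8 ± 1.69 scaled counts in shMMP9 and 31.7 ± 1.99 in shControl (SD, n = 3 each).

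At an adjusted p under 0.05 by limma over all genes tested, 7 of the 10 genes were called, beside 57.5% of all 17194 genes. Of the 10, 3 were higher in shMMP9 (PDK4, PDK2 and PDHB), beside 25% of all genes, and 4 were lower (PDHA1, PDP1, PDP2 and PDK1), beside 32.5%. The groups did not overlap for 7 of the 10, beside 62.7% of all genes. Nothing is read from these counts, since this comparison was known when the genes were chosen. The median log2 fold change was 0.05 over the 10 genes and -0.05 over all genes, and the median size of change was 0.24 over the 10 genes and 0.28 over all genes.

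**Figure D2:**
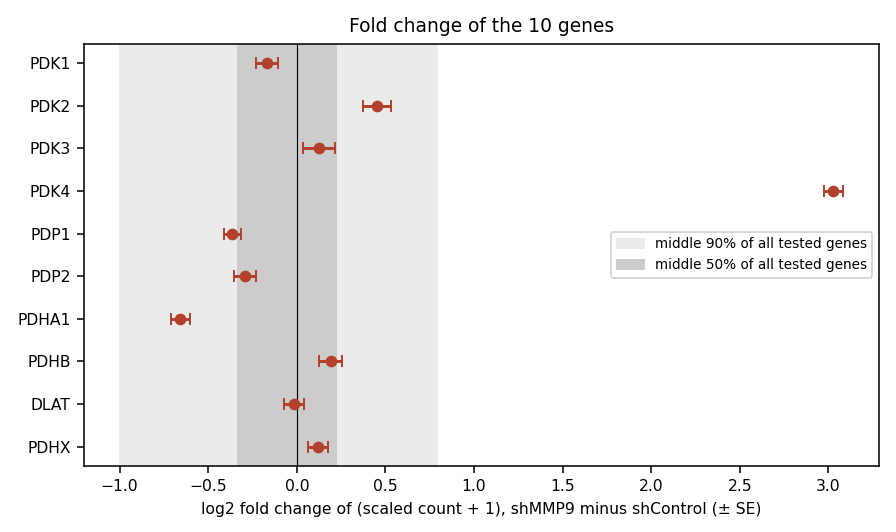
Log2 fold change (horizontal axis, shMMP9 minus shControl, points with SE bars) of the 10 genes, with shading for the middle 50% and the middle 90% of all tested genes. PDK4 at 3.03 lies outside the middle 90%, whose upper end is 0.79, and the other 9 lie inside it.

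Levels of different genes were compared per length, as scaled counts divided by the length of the union of annotated exons and brought to a sum of 1000000 in each library. On this scale PDK4 was the highest of the 10 genes in shMMP9, at 127.0 ± 4.58, and 8th of 10 in shControl, at 13.7 ± 0.201 (SD, n = 3 each). It exceeded 92.1% of all listed genes in shMMP9 and 54.2% in shControl. In shMMP9 the order after PDK4 was PDHB (114.0), PDHA1 (70.2), PDP1 (60.4), DLAT (60.2), PDHX (55.8), PDK2 (22.4), PDP2 (18.95), PDK3 (15.5) and PDK1 (8.74). The libraries of PDP1 and DLAT overlapped there, as did those of DLAT and PDHX, while the other neighbours in the order did not.

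In shControl the per-length order was PDHA1 (104.1), PDHB (93.3), PDP1 (72.8), DLAT (56.7), PDHX (47.9), PDP2 (21.8), PDK2 (15.2), PDK4 (13.7), PDK3 (13.2) and PDK1 (9.20). The ranges of PDHA1 and PDHB overlapped, as did those of PDK4 and PDK3. In the control cells, then, all 4 kinase transcripts lay below every subunit transcript on this scale, and in the shMMP9 cells the same held for PDK1, PDK2 and PDK3 but not for PDK4.

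The make-up of the kinase transcripts shifted accordingly. PDK4 held 72.9, 73.9 and 72.6% of the summed per-length level of the 4 kinases in the shMMP9 libraries, against 26.3, 26.97 and 27.03% in the shControl libraries. In shControl PDK2 held 29.5 ± 2.65%, PDK3 25.8 ± 2.62% and PDK1 17.9 ± 0.380%, so that PDK1 had the smallest share. That place rests on the length. PDK1 was divided by 14883 bases, against 4519 to 5481 for the other kinases, and its mean scaled count in shControl (33.07) was the highest of the 4. The longest PDK1 transcript has 14193 bases, so using it as length cannot test this. All shares and sums that include PDK1 depend on its length. In shMMP9 the shares were 12.9 ± 0.604% for PDK2, 8.92 ± 0.510% for PDK3 and 5.04 ± 0.129% for PDK1 (SD, n = 3 each).

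The summed kinase level per length was 173.6 ± 5.07 in shMMP9 and 51.3 ± 1.10 in shControl, and that of PDK1 to PDK3 without PDK4 was 46.6 ± 0.995 in shMMP9 and 37.6 ± 0.965 in shControl (SD, n = 3 each). The summed phosphatase level was 79.3 ± 1.54 in shMMP9 and 94.6 ± 1.84 in shControl. The ratio of kinase to phosphatase transcripts was thus 2.10, 2.23 and 2.24 in the shMMP9 libraries, against 0.544, 0.542 and 0.542 in the shControl libraries. Without PDK4 the ratio was 0.567, 0.584 and 0.614 in shMMP9, against 0.401, 0.396 and 0.395 in shControl, so the groups stayed apart. PDP1 made up a like part of the phosphatase sum in both groups, 76.1 ± 0.648% in shMMP9 and 76.97 ± 0.965% in shControl.

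**Figure D3:**
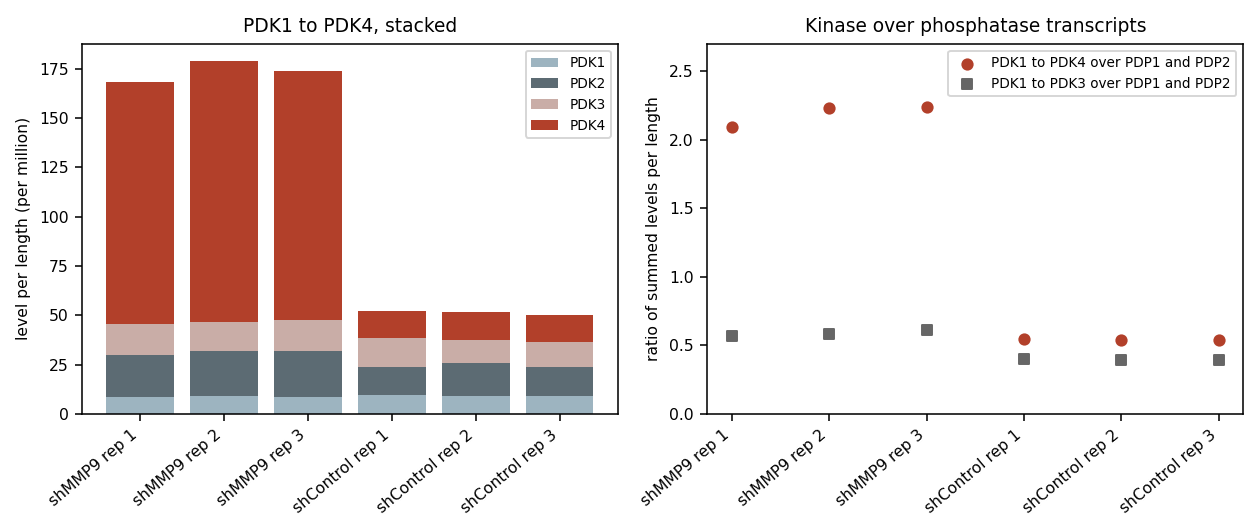
Left, level per length (parts in 1000000) of PDK1 to PDK4, stacked for each library, and right, the ratio of summed kinase to summed phosphatase levels per length with PDK4 (red circles) and without it (grey squares), shMMP9 libraries on the left of each panel. With PDK4 the ratio is 2.10 to 2.24 in shMMP9 and 0.542 to 0.544 in shControl.

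The same scale gave the balance of the subunits. The ratio of PDHA1 to PDHB was 0.640, 0.574 and 0.639 in the shMMP9 libraries, against 1.28, 1.01 and 1.08 in the shControl libraries. The alpha transcript was thus above the beta transcript in every control library and below it in every shMMP9 library. The ratio of PDHX to DLAT was 0.928 ± 0.0201 in shMMP9 and 0.845 ± 0.0284 in shControl (SD, n = 3 each), with no overlap between the groups. These are ratios of transcripts, and the amounts of protein and the phosphorylation of E1 were not measured.

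The 10 genes lie on 8 chromosomes, with PDK3 and PDHA1 both on chromosome X and DLAT and PDHX both on chromosome 11. PDHA1 (ENSG00000131828.13) spans chrX:19343893-19361705 on the plus strand of GRCh38, and PDK4 (ENSG00000004799.7) spans chr7:95583499-95596491 on the minus strand. Of the 6 tested protein-coding genes whose lower coordinate lay within 1 Mb of that of PDK4, 1 was higher and 1 was lower. PON2, a lactonase gene and the nearest of the 6, stood at 63.4 ± 0.771 scaled counts in shMMP9 and 40.7 ± 3.64 in shControl, a log2 difference of 0.63 (SE 0.0644) with an adjusted p = 2.21e-06 (limma). PPP1R9A, which encodes an actin-binding protein of neurons, stood at 6.93 ± 0.139 in shMMP9 and 11.3 ± 0.611 in shControl, a log2 difference of -0.63 (SE 0.0945) with an adjusted p = 7.53e-05 (limma). The other 4 (PEG10, DYNC1I1, SLC25A13 and SEM1) lay between -0.01 and 0.23 and were not called, so none of the 6 neighbours within 1 Mb came near the change of PDK4.

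**Figure D4:**
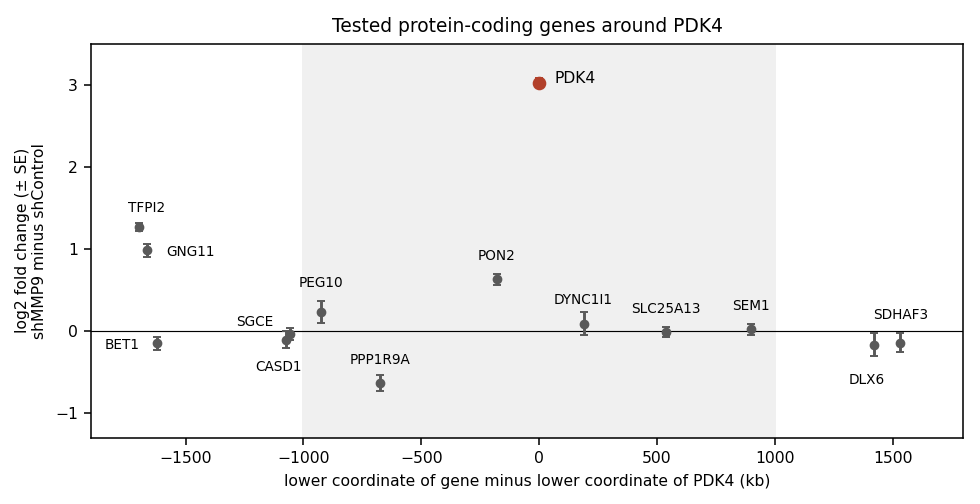
Log2 fold change (vertical axis, shMMP9 minus shControl, points with SE bars) of tested protein-coding genes against the distance of their lower coordinate from that of PDK4 in kb, with the window of 1 Mb on either side shaded. PDK4 (red) is at 3.03, and the genes in the window lie between -0.63 and 0.63.

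The genes whose profile over the 6 libraries was most like that of PDK4 were found by the distance between log2 values centred on each gene's own mean, over 11473 other genes with a mean scaled count of at least 5. The nearest was AKR1C2, an aldo-keto reductase gene with close homologues that may share reads, at a distance of 0.16. It was followed by IGFBP5, whose product binds insulin-like growth factors (0.17), TFAP2B, a neural crest transcription factor gene (0.25), SHISA2 (0.29) and the homeobox gene PRRX1 (0.35). AKR1C2 stood at 60.7 ± 1.63 in shMMP9 and 6.67 ± 0.569 in shControl, and IGFBP5 at 121.4 ± 2.03 in shMMP9 and 14.9 ± 0.804 in shControl (SD, n = 3 each). With 6 libraries in 2 groups, the likeness is mostly one of the size of the step between the groups.

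The counts for the lists of genes around the complex stand beside 25% of all genes tested called higher, 32.5% called lower and a median log2 fold change of -0.05 over all of them. Among partner enzymes and cofactor genes, of 16 tested genes 3 were higher and 7 were lower, with a median log2 fold change of -0.25, and without shControl replicate 3 or shMMP9 replicate 3 the number higher was 1. DLD, the E3 enzyme shared by all the 2-oxoacid dehydrogenases, stood at 102.9 ± 2.42 in shMMP9 and 91.8 ± 4.18 in shControl (log2 fold change 0.16, adjusted p = 0.0139, limma). That call was lost without shControl replicate 3, at a log2 fold change of 0.13, and without shMMP9 replicate 3, at 0.14. PDPR, the regulatory subunit of the phosphatase, was higher by 0.29 (adjusted p = 0.000273, limma), with a value that is uncertain because near-identical copies of the gene may share its reads. LIAS, which makes the lipoate carried by the E2 core, was lower by a log2 fold change of -0.68 (adjusted p = 3.42e-05, limma), at 9.82 ± 0.839 in shMMP9 and 16.3 ± 1.02 in shControl. PPM1K, the phosphatase of the related branched-chain complex, had a log2 fold change of -0.67 and OGDHL, a 2-oxoglutarate dehydrogenase-like gene, one of -0.85.

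Of the genes that bring pyruvate or use it elsewhere, 6 of 15 tested were higher and 7 lower (median 0.14), beside 25% and 32.5% of all genes. MPC1 and MPC2 encode the mitochondrial pyruvate carrier. MPC1 stood at 17.6 ± 1.69 in shMMP9 and 15.4 ± 0.487 in shControl and was not called (log2 fold change 0.18, adjusted p = 0.0863, limma), and MPC2 was called higher by a small margin (0.15, adjusted p = 0.0416, limma) that was lost when any one of 5 libraries was left out. LDHA, the lactate dehydrogenase subunit that favours lactate formation, was higher by 0.25 (adjusted p = 0.00137, limma), and LDHB, the subunit that favours lactate use, had a log2 fold change of -0.52 (adjusted p = 9.33e-07, limma). PCK2, the mitochondrial phosphoenolpyruvate carboxykinase, had one of -1.10, and the malic enzyme gene ME2 one of -0.54. Without shMMP9 replicate 1 the number of higher genes was 3.

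Downstream, 11 of 17 TCA cycle genes were lower and 3 were higher, beside 32.5% and 25% of all genes, with a median log2 fold change of -0.21 against -0.05 over all genes. CS, the citrate synthase that takes up the acetyl-CoA made by the complex, stood at 211.9 ± 2.596 in shMMP9 and 307.7 ± 5.88 in shControl (log2 fold change -0.54, adjusted p = 2.66e-07, limma). IDH2, an isocitrate dehydrogenase of mitochondria, had a log2 fold change of -1.15 and SUCLG2, a subunit of succinyl-CoA ligase, stood at 65.9 ± 3.597 in shMMP9 and 132.8 ± 1.37 in shControl. Of the 17 genes, OGDH and DLST are also in the list of partner enzymes.

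Of regulators that are known to act on PDK genes, 9 of 22 tested were higher and 9 lower (median 0.05), beside 25% and 32.5% of all genes. RXRG, a retinoid X receptor that pairs with PPAR receptors, was higher by 3.12 (adjusted p = 3.30e-10, limma), at 28.6 ± 1.82 in shMMP9 and 2.44 ± 0.682 in shControl. E2F1, a cell cycle factor, was higher by 0.68, and EPAS1, a hypoxia-inducible factor, had a log2 fold change of -0.85. Some other factors known to induce PDK4 were picked from the list after their values were seen, and all changed by less than RXRG. FOXO1 was higher by 0.85, the glucocorticoid receptor gene NR3C1 by 0.37 and PPARA by 0.39. The coactivator gene PPARGC1A had a log2 fold change of -0.91 and PPARD one of -0.27. Further factors in the list went either way and are not given singly.

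Among known PPAR targets in fat oxidation and storage 5 of 16 tested were higher and 5 lower (median 0.02), counts near the 25% and 32.5% of all genes, with the count of lower genes at 3 without shControl replicate 1 or shMMP9 replicate 2 and with total-read scaling. ANGPTL4, an inhibitor of lipoprotein lipase, was higher by 1.66 (adjusted p = 8.40e-10, limma), at 131.3 ± 8.51 in shMMP9 and 41.05 ± 4.76 in shControl. CPT1A, which admits fatty acids to mitochondria, was higher by 0.73 (adjusted p = 4.99e-08, limma), and ACAA2, a thiolase gene, had a log2 fold change of -0.92. Of FOXO targets 6 of 16 tested were higher and 5 lower (median 0.13), beside the same shares, with the transcription factor gene KLF9 higher by 1.11, TXNIP at -1.86 and the superoxide dismutase gene SOD2 at -1.32. Of HIF-1 targets 6 of 16 were higher and 8 lower (median -0.09), again beside 25% and 32.5%, with the glycolysis regulator PFKFB3 higher by 0.91, hexokinase gene HK2 at -0.69 and the peptide hormone gene ADM at -1.75.

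**Figure D5:**
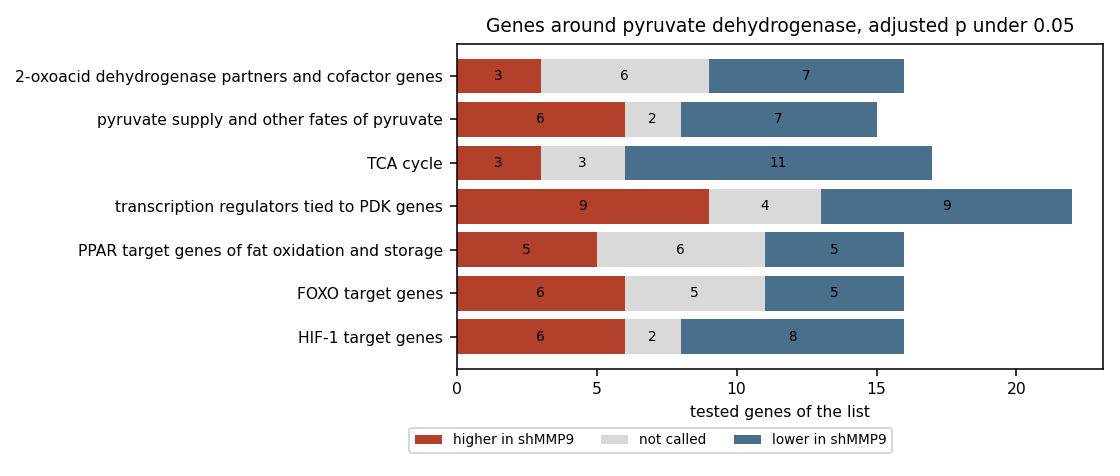
Number of tested genes (horizontal axis) that were higher in shMMP9 (red), not called (grey) or lower in shMMP9 (blue) at an adjusted p under 0.05 in 7 lists of genes around pyruvate dehydrogenase. The TCA cycle list has 3 higher and 11 lower of 17, beside 25% higher and 32.5% lower among all genes tested.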

How the data were processed

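The deposited table holds 1 value for each of 18539 genes in each of 6 libraries. The submitters' processing notes name STAR 2.6.1d, Partek and the hg38 build. How reads were counted, on which annotation and strand, and how genes were filtered is not given in the sources used here. Values deposited by the authors are log2(scaled count + 1), judged from the values: on the linear scale the 6 upper quartiles are alike (45.3 to 45.4). Read numbers were estimated on the assumption that the lowest value of each library stands for 1 read. On that assumption 64.6 to 67.7% of values per library came out whole within 0.01. As these are not raw counts, limma 3.58.1 (R 4.3.3), planned for such values, was used with a variance trend on the deposited values. A gene was tested if 3 libraries reached 10 reads at the median depth and the total reached 15, which kept 17194 genes and removed 1345. Adjustment was by Benjamini-Hochberg, with a threshold of 0.05. The fit was tested on simulated data in which far fewer genes changed than were called here. Within a group, chi-square per gene was 2.51 to 14.1, so no library was taken as a duplicate. Lengths came from GENCODE 29 (GRCh38), which held 18516 of the genes.

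The members and lists were chosen with earlier results of these data known. The rule for named genes takes the 10 members, MMP9, up to 3 genes per list by smallest adjusted p, then DLD, PDPR, MPC1, MPC2, LDHA and LDHB, the neighbours of PDK4 and the 5 genes most like it. Named outside this rule were FOXO1, NR3C1, PPARA, PPARGC1A and PPARD, genes that overlap a member, and some cell type markers. Markers of other cell types are given as sums, with some genes of the leukocyte and epithelial lists named beside them. Alternatives were the replicate block, each library left out, 2 scalings, pseudocounts of 0.25 and 4, no filter, a mean scaled count of at least 5, no variance trend, a threshold of 0.01 and limma-voom. Figures were drawn with matplotlib 3.10.9.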

Additional observations from a re-analysis of the deposited data

How the results depend on the processing

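PDK4, PDK2, PDP1, PDP2 and PDHA1 kept their direction and their call under all 16 alternatives. The alternatives reuse the libraries on which PDK4 was selected, so they show dependence on processing only and are no independent support. The number of the 10 genes past the threshold was 7 and ranged from 5 to 6 with 1 library left out, was 6 with the replicate number as a block, which ended the call of PDK1, and 5 with no variance trend or a threshold of 0.01. Libraries with the same number did not deviate together (correlations of 0.04, -0.13 and -0.026), and 1 of 6 correlated best with its own number. These values gave no sign of pairing by number, but with so few libraries they cannot exclude it. With the replicate block 4211 genes were higher and 5486 lower, against 4304 and 5584 without it, and the PDK4 log2 fold change stayed at 3.03. Median-of-ratios scaling gave 4949 higher and 4946 lower and total-read scaling 4988 and 4898, as they moved the median of all genes by 0.05 and 0.06. DLAT turned to 0.039 and 0.044 under these scalings and ran from -0.042 to 0.036 with 1 library left out, and SLC25A13 turned to 0.042 and 0.047 and ran from -0.063 to 0.026. SEM1 ran from -0.048 to 0.102 with 1 library left out. With the longest transcript as length PDK4 held 72.4% of the kinase sum in shMMP9, against 73.1% with the union of exons, and in both groups PDHX moved above DLAT (in shMMP9 above PDP1 too). In a window of 500 kb around PDK4 1 neighbour was called, and in one of 2 Mb 4 were, against 2 within 1 Mb. Of the 4 called within 2 Mb, 3 were higher and 1 was lower, and the largest log2 fold changes were those of TFPI2 (1.27) and GNG11 (0.98). Of the list counts under the alternatives, 12 moved by more than 1.5 times. The causes were not tested. No listed gene had a value of 0 in any library. A gene without reads in only 1 library may therefore be missing, so genes not listed may still have had reads.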
